A study of Mus musculus with 6 samples.

Results

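Side-by-side peaks of thyroid hormone receptor β1 (TRβ1) in mouse liver were examined: places where the receptor was called in hypothyroid liver or in liver given triiodothyronine (T3), with a peak of the other condition close by but not on the same bases. They were chosen by position alone. A peak on chromosomes 1 to 19 was taken if it shared 0 bp with every peak of the other list and the nearest edge of such a peak was at most 1000 bp away. The rule gave 4428 of 51297 peaks without T3 and 3643 of 45406 with T3, or 8071 of the 96703 peaks of both lists. Because the peak positions chose them, their counts, gaps and layout are a description, and no test was made on them.

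The mice were 9 to 10 weeks old, heterozygous for an expressed BirA, the ligase that puts biotin on a tagged protein, and all ate propylthiouracil (PTU), which blocks thyroid hormone synthesis, for 3 weeks. They then received adenovirus through the tail vein and saline or T3 into the abdomen for 4 days. The GFP PTU sample carried virus for GFP alone and had saline, TRb PTU carried GFP with biotinylated TRβ1 and had saline, and TRb T3 carried the same virus and had T3. Chromatin held by streptavidin was sequenced, with 1 library per condition, and how many animals it came from and the promoter of the receptor construct are not given in those labels. The receptor was delivered by virus, so these are sites of an introduced, tagged protein.

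TRβ1 is a nuclear receptor that binds DNA mostly as a partner of the retinoid X receptor, at paired copies of a short half-site. It can sit on DNA without hormone, where it recruits corepressors, and with T3 it exchanges them for coactivators. In liver it controls genes of lipid synthesis, cholesterol handling and carbohydrate metabolism. Receptor sites often lie in groups within a regulatory region, so a site seen in 1 hormone state can have neighbours seen in both.

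Each peak has a score from the authors' peak caller, which serves here to rank peaks within a list. A score percentile is a peak's standing among all peaks of its own list, and scores of different lists are not compared in size. Read depth is unknown, and a difference in peak numbers cannot be told apart from a difference in depth. CI stands for the exact 95% binomial interval over peaks and covers counting error only, and peaks of 1 library are not replicates. Positions are on mm9 and 1-based. No sequence or gene annotation of that build was used, so sites are named by position and no receptor half-site was looked for.

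Side-by-side peaks made up a similar small part of both lists. They were 8.63% of TRb PTU peaks (CI 8.39 to 8.88%) and 8.02% of TRb T3 peaks (CI 7.77 to 8.28%). Across the autosomes, 46.1% of TRb PTU peaks and 38.5% of TRb T3 peaks shared no base with the other list, and side-by-side peaks were 18.7% and 20.8% of these. With equal numbers of peaks in both lists, taken by score, the shares were 7.63 and 8.26%, so the order of the lists turned. The remainder, 19220 TRb PTU and 13839 TRb T3 peaks, were isolated, with no peak of the other list within 1000 bp.

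Most of these peaks were not swapped for a peak of the other hormone state. They lay next to a site that both lists held. For 3667 of the 4428 TRb PTU peaks (82.8%, CI 81.7 to 83.9%), the nearest TRb T3 peak itself overlapped another TRb PTU peak. The same held for 2885 of the 3643 TRb T3 peaks (79.2%, CI 77.8 to 80.5%). These are called flanking peaks below: the list that has the flanking peak also has the neighbouring site, and the other list has a peak at the neighbouring site but none over the flanking peak. The remaining 761 TRb PTU and 758 TRb T3 peaks faced a peak that was itself called in a single list, and are called facing peaks.

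The high share of flanking peaks has to be read against how common overlapping sites were. Of all autosomal peaks, 61.5% in TRb T3 and 53.9% in TRb PTU overlapped a peak of the other list. For isolated peaks, the nearest peak of the other list was an overlapping site in 69.4% of TRb PTU cases (CI 68.7 to 70.1%) and 63.8% of TRb T3 cases (CI 63.0 to 64.6%). With a gap of 500 bp or less the share was 84.2% for TRb PTU and 80.9% for TRb T3, and between 4500 and 5000 bp it was 74.0% and 69.2%.

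**Figure D1:**
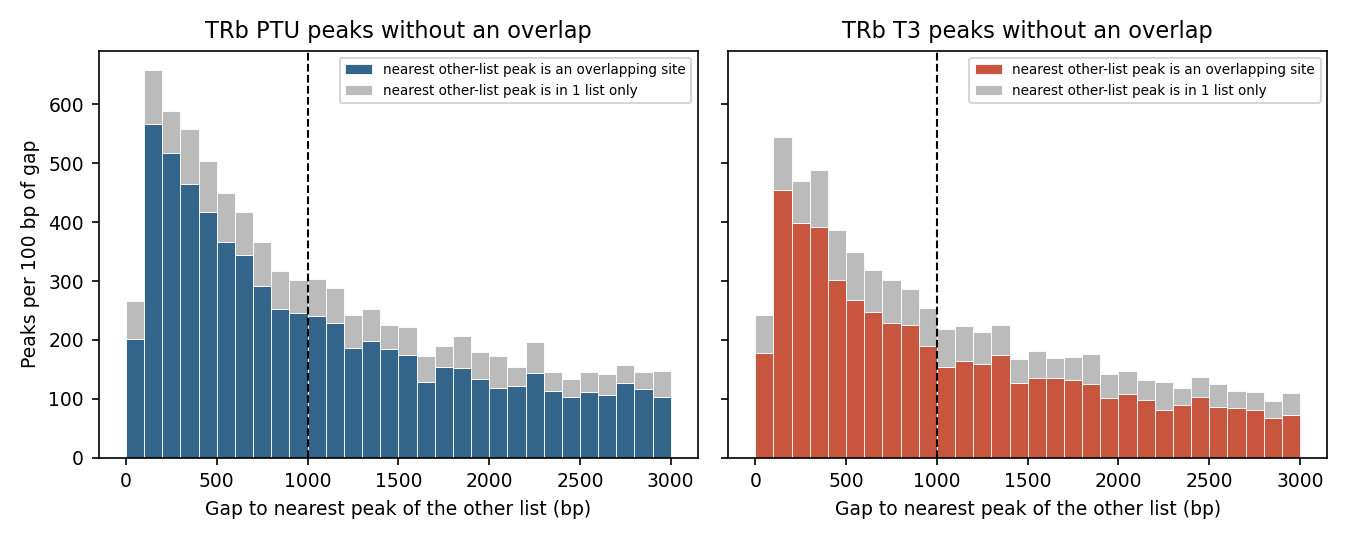
Number of peaks without an overlap (y axis, per 100 bp of gap) against the gap in bp to the nearest peak of the other list (x axis), for TRb PTU on the left and TRb T3 on the right. Colour marks peaks whose neighbour is an overlapping site, grey marks the others, and the dashed line is the 1000 bp bound. Counts peak between 100 and 200 bp, at 658 and 544, then decline with no step at the bound.

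Gaps between the edges ran from 1 bp to 1000 bp in TRb PTU and from 1 bp to 999 bp in TRb T3. TRb PTU had a median of 430 bp (quartiles 231 and 670 bp), and TRb T3 had 422 bp (quartiles 228 and 681 bp). Very small gaps were rare: 63 TRb PTU and 68 TRb T3 peaks lay within 50 bp of their neighbour. Peaks of the same list were never closer than 51 bp in either TRb list, so a flanking peak keeps at least that distance from the peak of its own list at the neighbouring site. At gaps of up to 50 bp, 50.8% of the TRb PTU and 55.9% of the TRb T3 peaks were flanking. The shares were 83.3% and 80.5% at gaps above 50 and up to 100 bp. A flanking peak can have a gap of up to 50 bp only where the other-list peak reaches past the own-list peak. The lower share at these gaps is thus partly built into the lists.

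The 1000 bp bound cut through a smooth decline. TRb PTU had 302 peaks with gaps above 900 and up to 1000 bp, with a median score of 12.99, and 303 with gaps above that and up to 1100 bp, with a median score of 12.24. In TRb T3 the counts were 255 and 219 and the median scores 14.13 and 13.96. The nearest neighbour was an overlapping site for 81.1% of the TRb PTU peaks just inside and 79.2% of those just outside, and for 74.5% and 70.3% in TRb T3.

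Side-by-side peaks were weak and narrow calls. Their median score was 11.95 in TRb PTU, against 32.28 for overlapping and 12.83 for isolated peaks of that list. In TRb T3 it was 13.54, against 30.50 and 15.47. As percentiles of their own list the medians were 30.0 in both lists, against 67.7 and 61.7 for overlapping peaks and 33.0 and 35.6 for isolated peaks. In both lists side-by-side peaks therefore stood slightly below isolated peaks and far below overlapping ones. The median width was 187 bp in TRb PTU, against 240 bp for overlapping and 183 bp for isolated peaks, and 168 bp in TRb T3, against 212 and 171 bp.

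**Figure D2:**
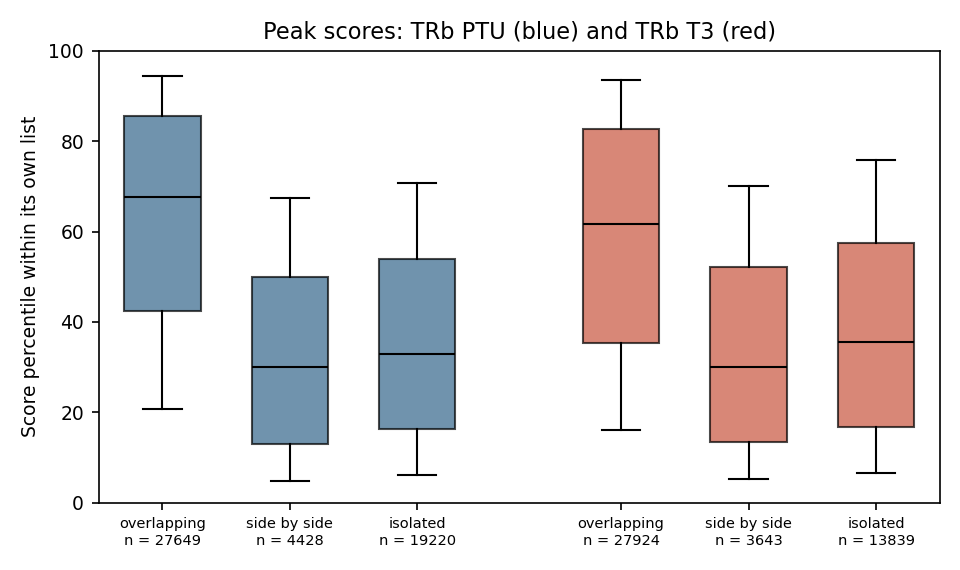
Score percentile within the peak's own list (y axis, 0 to 100) for overlapping, side-by-side and isolated peaks of TRb PTU (blue) and TRb T3 (red), with the number of peaks under each box. Boxes span the quartiles with the median as a line, and whiskers reach the 10th and 90th percentiles. Side-by-side peaks have the lowest median in each list, 30.0.

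Few of them reached the top of a list. In the weakest 10% of TRb PTU by score, 16.6% were side by side (CI 15.6 to 17.6%), and in the weakest 10% of TRb T3, 15.2% (CI 14.2 to 16.3%). In the strongest 10% the shares were 0.560% (29 peaks, CI 0.375 to 0.803%) and 1.38% (63 peaks, CI 1.06 to 1.76%). Single-list peaks of any kind were rarer among high scores. Among single-list peaks alone, the side-by-side share still fell from 21.7 to 10.0% in TRb PTU and from 24.8 to 15.9% in TRb T3 between the lowest and highest decile.

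Scores were lower at gaps of up to 100 bp than at wider gaps. In TRb PTU the median percentile was 26.0 at gaps of up to 50 bp (63 peaks). It was 19.7 above 50 and up to 100 bp (204 peaks), 29.5 above 100 and up to 200 bp, and 33.4 for gaps above 750 bp. In TRb T3 the values were 17.3 (68 peaks), 20.1 (174 peaks), 28.3 and 32.4. Most of the difference thus lay below 100 bp, where peaks were few.

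Flanking peaks were usually the weaker call beside a stronger site in their own library. That site is an overlapping peak by definition. Overlapping peaks of any kind already had median percentiles of 67.7 in TRb PTU and 61.7 in TRb T3. The TRb PTU peak at the neighbouring site had a median percentile of 73.5 and a median width of 277 bp, while the flanking TRb PTU peaks had 30.6 and 189 bp. In TRb T3 the neighbouring site stood at 77.3 with a width of 257 bp, and the flanking peaks at 31.3 and 171 bp. The flanking peak outscored its own-list neighbour in 616 of 3667 TRb PTU cases (16.8%, CI 15.6 to 18.0%) and 470 of 2885 TRb T3 cases (16.3%, CI 15.0 to 17.7%). The flanking peaks lay a median of 365 bp from that own-list peak with PTU alone and 399 bp with T3.

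A shared site mostly had a single flanking peak. In TRb PTU the 3667 flanking peaks lay beside 3312 TRb T3 peaks, of which 2972 had 1 flanking peak and 340 had several, up to 3. In TRb T3 the 2885 flanking peaks lay beside 2657 TRb PTU peaks, of which 2439 had 1 and 218 had several, again up to 3.

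The shared site next to a flanking peak tended to rank higher in the list that had the flanking peak. This was examined at the 26670 autosomal sites where 1 peak of each list overlapped, with scores ranked again in each list among these sites so that both rankings have the same length. Over all of them, 48.9% ranked higher in TRb T3. With no flanking peak next to them the share was 49.7% of 20994 sites (CI 49.0 to 50.3%). Beside a TRb PTU flanking peak it was 29.5% of 3084 sites (CI 27.9 to 31.2%), and beside a TRb T3 flanking peak 66.2% of 2480 sites (CI 64.3 to 68.0%). The 112 sites with flanking peaks of both lists gave 53.6% (CI 43.9 to 63.0%).

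In size, sites beside a TRb PTU flanking peak had a median rank of 56.8 in TRb PTU and 39.3 in TRb T3. In width the medians were 274 and 193 bp. Sites beside a TRb T3 flanking peak had median ranks of 49.5 in TRb PTU and 67.3 in TRb T3, with widths of 234 and 252 bp. The median difference in rank, TRb T3 minus TRb PTU, was -11.1 percentile points for the first group, 8.51 for the second and -0.16 with no flanking peak. The rule did not use the scores directly. Whether a peak was called at all depends on the same library that gave the scores, so the ranks are not independent of the rule. The difference was not checked in another animal. Peak width moved with the rank, and its part in the difference was not tested.

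**Figure D3:**
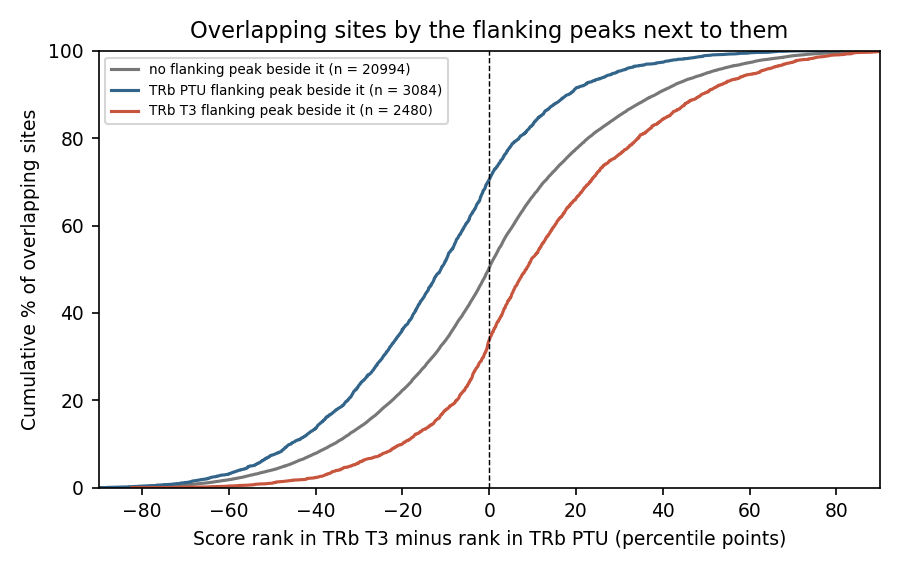
Cumulative share of overlapping sites (y axis, percent) against the score rank in TRb T3 minus the rank in TRb PTU (x axis, percentile points, both ranked among the same 26670 sites). The line for sites beside a TRb PTU flanking peak lies to the left of the grey line for sites with none (medians -11.1 and -0.16), and the line beside a TRb T3 flanking peak lies to the right (8.51).

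The tilt was not limited to the 1000 bp bound. It weakened with distance and was turned around at the sites farthest from a single-list peak. Both rankings run over the same sites, so a tilt at near sites must be balanced in mean rank elsewhere. The turn at far sites is therefore not a separate result. The distance here runs from the site to the nearest single-list peak. Sites with a TRb PTU single-list peak within 500 bp ranked higher in TRb T3 in 31.0% of 2117 cases, and above that and up to 1000 bp in 32.3% of 1483. In the next bands the share was 40.6% (up to 2000 bp), 44.8% (up to 5000 bp), 50.5% (up to 20000 bp) and 57.3% (farther away). For TRb T3 single-list peaks the order was reversed, with 66.7% of 1710 sites within 500 bp, 60.5% of 1237 up to 1000 bp, then 58.0, 56.1 and 48.2% in the same bands, and 42.0% beyond 20000 bp. Neighbouring sites share their library and their region, so these sites are not independent observations.

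The facing peaks are the places where single-list calls of both lists lay a short distance apart. Runs of neighbouring peaks without any shared site held 624 TRb PTU and 619 TRb T3 side-by-side peaks. Some of the 761 and 758 facing peaks therefore had a shared site in their run as well. These are differences between lists of 1 library each, and the part of the hormone in them was not tested. In 670 cases a TRb PTU and a TRb T3 peak were each other's nearest peak of the other list, and they form mutual pairs. A further 91 TRb PTU and 88 TRb T3 facing peaks had a neighbour that was closer to another peak. Within a mutual pair the edges were 1 to 998 bp apart, with a median of 444 bp (quartiles 234 and 685 bp), and the midpoints a median of 637 bp. The stretch covered by both peaks had a median length of 830 bp. The TRb T3 peak lay at the higher coordinate in 349 of the 670 pairs (52.1%).

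Both partners of a mutual pair were mostly weak. TRb PTU peaks of the pairs had a median score of 11.40 (range 2.50 to 90.01) and a median percentile of 28.7. The TRb T3 peaks had a median score of 12.04 (range 2.20 to 142.46) and a median percentile of 25.03. Both peaks lay at or below the median of their list in 421 pairs (62.8%), both lay above it in 39 (5.82%), and the TRb PTU peak alone or the TRb T3 peak alone lay above it in 111 and 99. The TRb PTU peak had the higher percentile in 342 pairs (51.0%, CI 47.2 to 54.9%). In 5 pairs either peak was in the top decile of its list.

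The strength of a peak in a mutual pair was almost unrelated to that of its partner. Across the 670 pairs, the Spearman correlation of the scores was 0.031, against 0.51 across the 26670 overlapping sites. Both are descriptions across sites of the same libraries. Scores also spanned a narrower range in the pairs, up to 90.01 in TRb PTU and 142.46 in TRb T3, than at overlapping peaks, up to 615.60 and 579.09, and the part of that range in the difference was not tested.

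**Figure D4:**
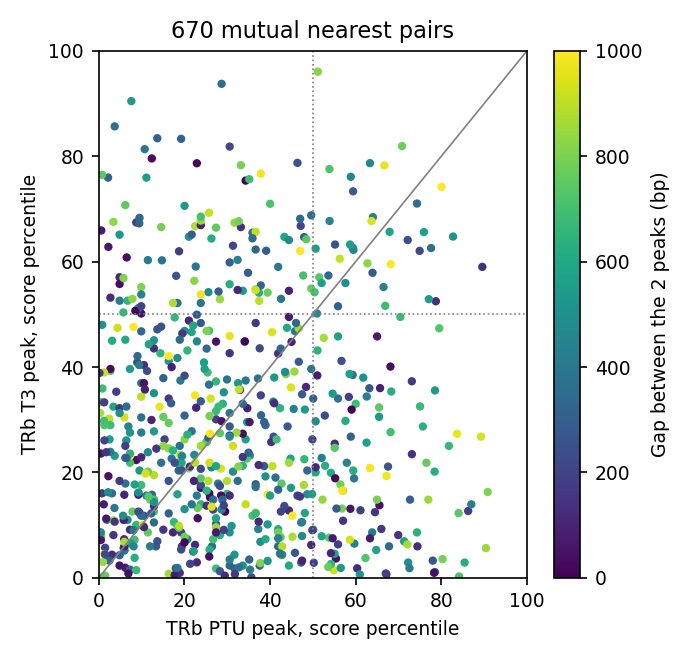
Score percentile of the TRb T3 peak (y axis) against that of the TRb PTU peak (x axis) in the 670 mutual pairs, each within its own list, with colour for the gap in bp. Dotted lines mark the list medians and the diagonal marks equal percentiles. Both percentiles are at or below 50 in 421 pairs and above 50 in 39.

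The strongest mutual pairs by the lower of their percentiles were well-scored calls. The first lay on chromosome 3, with a TRb PTU peak at 101721316 to 101721522 (score 51.11, percentile 80.0) and a TRb T3 peak 994 bp away at 101722517 to 101722713 (score 45.11, percentile 74.2). On chromosome 19 a TRb PTU peak at 3685835 to 3686144 (score 40.73, percentile 74.3) had a TRb T3 peak 355 bp away at 3685099 to 3685479 (score 40.63, percentile 71.0). On chromosome 10 the pair was a TRb PTU peak at 95588392 to 95588716 (score 35.99, percentile 70.8) and a TRb T3 peak at 95589492 to 95589971 (score 60.64, percentile 81.9), 775 bp apart. These 3 pairs were the only ones in which both percentiles passed 70.

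The other 5 of the 8 strongest pairs were on chromosomes 5, 1, 10, 6 and 14. Their TRb PTU peaks began at 3344329, 13294287, 7559407, 114838375 and 73535791, with percentiles of 66.7, 67.9, 75.9, 82.7 and 72.1. The TRb T3 peaks began at 3345619, 13295043, 7558655, 114839059 and 73536272, with percentiles of 78.2, 65.6, 65.6, 64.7 and 64.1. Their gaps ran from 239 bp, on chromosome 14, to 965 bp, on chromosome 5. The TRb PTU peak had the higher percentile in 4 of these 5, and the TRb T3 peak had it on chromosome 5.

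The tightest mutual pairs nearly touched. On chromosome 6 a TRb PTU peak at 120100368 to 120100603 (score 24.80) ended 1 bp short of a TRb T3 peak at 120100605 to 120100736 (score 14.19). On chromosome 1 the gap was also 1 bp, between a TRb PTU peak at 137066735 to 137066931 (score 11.80) and a TRb T3 peak at 137066933 to 137067095 (score 8.66). Gaps of 8 bp separated TRb PTU and TRb T3 peaks on chromosome 17, starting at 87717418 and 87717223, and on chromosome 15, starting at 82013770 and 82013578. Their midpoints were 181 to 214 bp apart, about the width of a peak. In all, 30 pairs had a gap of at most 50 bp, while 292 pairs (43.6%) had a gap above 500 bp.

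The highest-scored side-by-side peaks of either list were all flanking peaks, and 9 of these 10 outscored the own-list peak beside them. They were picked for their high scores, which makes outscoring a neighbour likely in advance. In TRb PTU the first was at chr1:193780124-193780423, with a score of 198.81 (percentile 98.5). The shared site beside it, 486 bp away in TRb T3, scored 6.13 in TRb T3 and 24.45 in TRb PTU (percentiles 4.56 and 58.6). Here a strong TRb PTU call had no TRb T3 peak over it, while a site next to it that was weak in TRb T3 was called in both. The next were at chr6:90417011-90417348 (157.06), at chr17:34951712-34952183 (154.09) and at chr1:196187568-196187818 (150.05). The fifth, at chr2:118489749-118490174 (134.56), was the only 1 of these 5 that scored below its own-list neighbour, which had 170.62. Beside the peak on chromosome 17 the shared site had the higher percentile in TRb T3, 49.4 against 15.1 in TRb PTU. Beside each of the other TRb PTU peaks named here it stood higher in TRb PTU.

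In TRb T3 the highest-scored side-by-side peak was at chr6:67100304-67100679, with a score of 216.96 (percentile 98.9). The shared site 160 bp away scored 108.01 in TRb T3 and 22.34 in TRb PTU (percentiles 92.7 and 55.4). The others were at chr6:97842996-97843315 (193.11), at chr18:35201900-35202196 (169.57), at chr15:54951048-54951469 (169.31) and at chr12:74901550-74901823 (166.98). Each of the 5 outscored its own-list neighbour. At the sites on chromosomes 6 and 18 that begin at 97842996 and 35201900, the neighbouring shared site was strong in TRb T3 (140.52 and 151.35) and had percentiles of 29.4 and 25.5 in TRb PTU. On chromosome 15 its percentiles were 57.3 in TRb T3 and 22.9 in TRb PTU. On chromosome 12 they were nearly equal, 75.4 in TRb T3 and 75.8 in TRb PTU. These percentiles run over whole lists, in which overlapping peaks stand higher in TRb PTU (median 67.7) than in TRb T3 (61.7).

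Peaks of both lists were then joined into runs wherever neighbours lay within 1000 bp, to see what surrounded the side-by-side peaks. Of 53223 runs, 6296 held a side-by-side peak, and their median length was 1125 bp. A shared site with extra TRb PTU peaks alone was the commonest layout, with 3004 runs (47.7%). A shared site with extra TRb T3 peaks alone followed, with 2374 (37.7%). Runs with side-by-side peaks of both lists and no shared site numbered 586 (9.31%), and runs with both kinds around a shared site 332 (5.27%). Of the 5710 runs with a shared site, 4740 held 1 side-by-side peak and so could show a single list only. Among the 970 with more, 391 had TRb PTU side-by-side peaks alone, 247 had TRb T3 ones alone and 332 had both. Counted directly, 869 TRb PTU peaks (19.6%) had a side-by-side peak of TRb T3 within 1000 bp, and 869 TRb T3 peaks (23.9%) had one of TRb PTU.

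**Figure D5:**
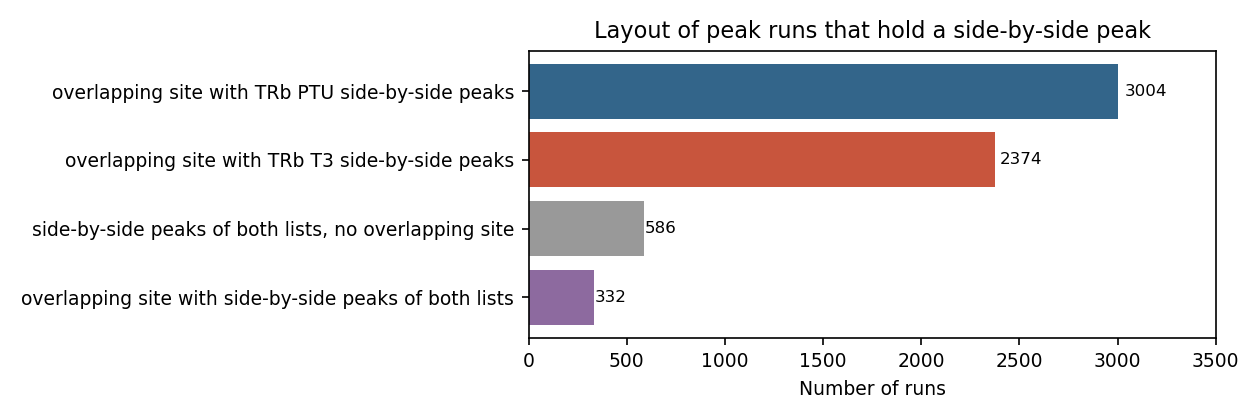
Number of runs (x axis) by layout, among the 6296 runs of peaks joined at 1000 bp or less that hold a side-by-side peak. Bars start at 0 and carry their counts: shared sites with extra peaks of a single list give 3004 and 2374 runs, against 586 without a shared site and 332 with extra peaks of both lists.

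A run held a single side-by-side peak in 4740 cases (75.3%), and 24 runs held 4 or more. The run with the most was at chr7:52960133-52970864, with 8 TRb PTU side-by-side peaks and 0 of TRb T3. It held 15 TRb PTU and 7 TRb T3 peaks over 10732 bp. The side-by-side peaks scored 3.41 to 23.66, while its 6 overlapping TRb PTU peaks had a median of 32.31. A TRb PTU peak in its middle, at 52966016 to 52966511 with a score of 59.23, lay 1343 bp from the nearest TRb T3 peak and so fell outside the rule.

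The other long runs differed in kind. On chromosome 19 at 5831318 to 5843575, 18 TRb T3 and 12 TRb PTU peaks lay over 12258 bp. All 12 TRb PTU peaks were overlapped, so the 6 side-by-side peaks could only be of TRb T3. Their scores ran from 5.78 to 27.96. On chromosome 4 at 137417731 to 137424047, 2 TRb PTU and 4 TRb T3 side-by-side peaks stood around 3 shared sites. The strongest of these sites scored 171.63 in TRb PTU and 179.03 in TRb T3, near the 98th percentile of both lists (97.8 and 97.9). The 3 TRb T3 peaks between 137420512 and 137421433 lay one after another without a TRb PTU peak, with scores of 10.79, 24.52 and 12.90.

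The share of side-by-side peaks varied modestly between chromosomes. It ran from 7.13% on chromosome 18 to 10.6% on chromosome 11 in TRb PTU, and from 6.75% on chromosome 15 to 9.57% on chromosome 8 in TRb T3. Chromosome 11 had 434 TRb PTU and 240 TRb T3 side-by-side peaks, a ratio of 1.81, and the ratio of all peaks there was 1.33. Chromosome 18 had 109 and 127, a ratio of 0.858, against 0.989 for all its peaks. Over all autosomes the ratio was 1.22 for side-by-side peaks and 1.13 for all peaks. Across the 19 autosomes, the TRb PTU share rose with the number of TRb PTU peaks per Mb (Spearman 0.72). The TRb T3 share rose much less with the number of TRb T3 peaks per Mb (Spearman 0.17). The rule asks for a peak of the other list within 1000 bp, so the density of that other list enters the share by construction. Its part in these correlations was not tested.

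In a block on chromosome 4 from 60000001 to 61500000, TRb T3 peaks without a TRb PTU partner are crowded. It held 146 TRb T3 peaks, of which 41 were overlapping, 75 isolated and 30 side by side. Across all autosomes, 61.5% of TRb T3 peaks were overlapping, 30.5% isolated and 8.02% side by side. The block is described for that crowding, so its high counts of single-list peaks are not a separate result. All 42 TRb PTU peaks in the block were overlapping, so none could be side by side. For the same reason the 30 TRb T3 side-by-side peaks could only be flanking, and all were. Their median gap was 558 bp and their scores ran from 2.78 to 111.33.

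Signal in livers without the tagged receptor touched very few of these sites. A GFP PTU peak overlapped 4 TRb PTU side-by-side peaks (0.0903%, CI 0.0246 to 0.231%) and 1 of TRb T3 (0.0274%, CI 0.000695 to 0.153%). The shares for overlapping peaks were 0.159% and 0.154%. The GFP PTU list has 107 peaks in all, so these shares had to be low and do not measure the background. The 4 TRb PTU peaks were chr13:48974085-48974288, chr14:31832160-31832424, chr16:33380746-33381074 and chr5:125602454-125602747, with scores of 9.85, 43.44, 20.03 and 86.03. The TRb T3 peak lay at chr2:22444123-22444534, with a score of 26.97.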

How the data were processed

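ChIP-seq peak lists of 3 libraries (GFP PTU, TRb PTU and TRb T3) were used; the 3 input samples were not analysed here. Samples were grouped by title. Reads were handled with Bowtie and SAMtools and peaks with MACS2 on mm9, per the submitters' processing notes. Versions, settings, controls and filters: not given in the sources used here. Each deposited list gives a start, an end and a score per peak. The deposited score is the authors' peak caller's value, its statistic is not stated, and it was used only within a list. Depth is unknown.

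The gap is the number of bases between the nearest edges, and 1 shared bp counted as overlap. No neighbour was tied. Percentiles run over the whole deposited list, with ties averaged. Intervals are exact (Clopper-Pearson, 95%). The sites named are the 8 mutual pairs with the highest lower percentile and the 5 highest-scored side-by-side peaks of each list. The 4 tightest pairs and the 3 runs with the most side-by-side peaks are named as well. Sites at GFP peaks, and the peaks described within runs, were picked after their values were seen. The block on chromosome 4 was not chosen by these rules. The side-by-side peaks and these rules were chosen with earlier results of these data known. The planned search for half-sites and genes was not run, because no mm9 sequence or annotation was used here. The tissue was therefore not checked against marker genes. The code that assigns classes and gaps was tested on 20000 simulated layouts, and all 20000 came back as made. That test read the TRb PTU side only and did not cover mutual pairs, runs or the ranks of shared sites. Distance, score filter, equal numbers, GFP sites, minimum overlap and chromosome X were varied. Python 3.11.15, numpy 2.4.6, pandas 2.3.3, scipy 1.17.1 and matplotlib 3.10.9 were used.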

Additional observations from a re-analysis of the deposited data

How the results depend on the processing

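No paired analysis was possible because there was 1 library for each condition, and no replicate could be left out. TRb PTU values come first and TRb T3 values second. The number of side-by-side peaks (4428 and 3643) was 2575 and 2131 with a bound of 500 bp, 6711 and 5534 with 2000 bp, and 1291 and 1225 when each list was limited to scores not below its median, which also removes partners. The median gap (430 and 422 bp) was 264 and 264 bp, 678 and 692 bp, and 484 and 457 bp under these settings. The bounds fix most of that change by construction. The share facing a single-list peak (17.2 and 20.8%) was 15.8 and 19.1%, 18.8 and 22.4%, and 18.7 and 19.3% under them, and 19.8 and 18.4% with equal numbers of peaks, where the order of the lists turned. With equal numbers the counts also turned, to 3471 and 3749. The median percentile (30.0 in both) was 28.5 in TRb PTU at 500 bp, and 33.3 and 33.7 with the score filter, ranked again in the filtered lists. Removing GFP sites, asking for 50 shared bp and adding chromosome X left these values within their intervals, and the counts within 1.5 times.

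The rank tilt of shared sites was examined after seeing the data, and so were its alternatives. The share ranking higher in TRb T3 beside a TRb PTU flanking peak (29.5%) was 32.1% with 2000 bp, and 35.8, 26.7 and 25.4% among sites split by mean rank into 3 equal groups, from lowest to highest. Beside a TRb T3 flanking peak (66.2%) it was 60.7 and 70.0% in the lowest and middle group. With no flanking peak (49.7%) it was 50.8 and 48.5% in the middle and highest group. It was 65.8% beside TRb T3 flanking peaks without the block on chromosome 4. The order of the 3 groups was the same under each alternative run. Unknown depth limits every count of peaks.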

Other observations

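The same rule was applied to sequences outside chromosomes 1 to 19. On chromosome X, side-by-side peaks numbered 39 of 607 in TRb PTU (6.43%, exact 95% CI 4.61 to 8.68%) and 41 of 588 in TRb T3 (6.97%, CI 5.05 to 9.34%). Of these, 32 and 35 were flanking, and their median scores were 8.62 and 11.11. On the other sequences, which are the Y chromosome, unplaced and mitochondrial sequence held by both lists, the counts were 7 of 88 and 3 of 98.

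Some side-by-side peaks had a peak of the other list within 1000 bp on both sides, so that they stood between calls of the other hormone state. This held for 358 TRb PTU peaks (8.08%) and 326 TRb T3 peaks (8.95%).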
